A study of Arabidopsis thaliana with 44 samples.

Results

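This comparison sets it:cbf123, a triple CRISPR/Cas9 mutant of the Italian ecotype of Arabidopsis thaliana, against its parent IT, both grown in the warm. All genes entered with no choice among them, and a gene was kept when either line reached 1 FPKM (read fragments scaled by transcript length and by the size of the library), which left 18169 of 33557 genes. The series holds 44 RNA sequencing libraries, 2 in each of 22 groups, from IT and SW (a Swedish ecotype), their cbf mutants and other labelled lines, in the warm and after 24 h or 2 weeks at 4°C. Both groups compared here were the entire aerial part of plants grown on soil at 22°C under a 12-h photoperiod for 23 days and collected at ZT4, which is 4 h after lights on, and the cold-treated plants were moved to 4°C after that age. The photoperiod is that of the labels and methods, and a legend of the study gives a longer one for the levels of FLC, MAF4 and MAF5. The line labelled it8 was taken to be it:cbf123 from chart labels in the study's supplement. IT already carries a natural 13-bp deletion that inactivates CBF2, so both groups lack a working CBF2, and the comparison is about the added loss of CBF1 and CBF3. The mutant was backcrossed to its parent to remove the transgene, and the study used F2 progeny of those backcrosses. The libraries of the mutant carry the single line label it8. The deposited table has 1 pooled value per gene and group, so no ratio computed here has a replicate check. A gene is called higher or lower by size alone. The call needs a log2 ratio of at least 1 in either direction (2-fold), with 0.5 FPKM added to both values.

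CBF1, CBF2 and CBF3 are neighbouring genes that encode AP2/ERF-type activators. In the cold their transcripts are induced within minutes. The proteins bind the CRT/DRE element in promoters of cold-regulated genes such as the COR, LTI and KIN genes, which encode small protective proteins. In the warm the CBF genes are transcribed at low, clock-gated levels, so a warm comparison asks what the loss of the factors does to plants that have not met cold. FLC and the MAF genes, which also enter below, encode MADS-box repressors of flowering.

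The edits in the coding sequences are shown first, since they define the mutant. They are given 5′ to 3′ in the coding direction, with the bases that were lost from IT or gained in the mutant in capitals. The CBF genes lie on the minus strand of chromosome 4 in TAIR10.1, CBF2 at chr4:13015250-13016235, CBF3 at chr4:13018010-13019400 and CBF1 at chr4:13021780-13022996.
CBF1 in it:cbf123: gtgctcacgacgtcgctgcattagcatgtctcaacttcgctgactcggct
CBF1 in IT: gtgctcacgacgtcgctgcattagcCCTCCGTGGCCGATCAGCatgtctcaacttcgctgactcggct
CBF2 in it:cbf123: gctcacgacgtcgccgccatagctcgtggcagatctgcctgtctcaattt
CBF2 in IT: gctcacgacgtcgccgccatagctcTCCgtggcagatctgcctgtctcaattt
CBF3 in it:cbf123: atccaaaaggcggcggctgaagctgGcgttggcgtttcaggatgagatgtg
CBF3 in IT: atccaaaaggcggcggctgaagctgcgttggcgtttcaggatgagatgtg
The CBF1 edit removed 18 bases, positions 279 to 296 of the IT coding sequence counted from its first base, and kept the reading frame (624 bases in it:cbf123 and 642 in IT). The CBF2 edit removed 3 bases at positions 290 to 292 of an IT coding sequence that is 13 bases short already. The CBF3 edit inserted 1 base after position 394 and so shifted the frame.

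None of the 6 CBF and DREB1-type genes examined reached 1 FPKM in either line in the warm. CBF1 was listed at 0 in it:cbf123 and at 0.0668 FPKM in IT, CBF2 was at 0.138 FPKM in it:cbf123 and 0.202 FPKM in IT, and CBF3 was at 0.452 FPKM in it:cbf123 and 0.533 FPKM in IT. DDF1 was at 0.0707 FPKM in it:cbf123 and 0.375 FPKM in IT, and CBF4 and DDF2 were listed at 0 in both. After 24 h of cold the edited genes were still transcribed, with CBF3 at 92.4 FPKM in it:cbf123 and 54.6 FPKM in IT, and CBF2 at 26.53 and 25.2 FPKM in the same lines. Such small edits leave a transcript that can be counted, so these levels do not check the loss of the proteins and only show that the loci were almost silent in both lines when the warm tissue was taken.

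The tissue matched its label. The 5 leaf mesophyll markers, among them RBCS1A and CA1, summed to 43500 FPKM in it:cbf123 and 37000 FPKM in IT. The 9 root markers summed to 4.32 FPKM in it:cbf123 and 5.29 FPKM in IT, with 5 and 3 of them at 0. The 6 flower markers summed to 0.983 FPKM in it:cbf123 and 1.3 FPKM in IT, the 5 seed markers to 0.0144 FPKM in it:cbf123 and 0 in IT, the 3 pollen markers to 2.12 and 1.59 FPKM, the 4 guard cell markers to 26.4 and 25.7 FPKM and the 4 shoot meristem markers to 0.754 and 0.463 FPKM, mutant first. No gene of these marker lists was called. Most root, flower, seed, pollen and shoot meristem markers were below 1 FPKM in both lines and so could not be called. In whole shoots a smaller number of cells of a type and less RNA in each of them cannot be told apart.

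Few genes differed. Of the 18169 genes kept, it:cbf123 had 154 higher (0.848%) and 241 lower (1.33%) than IT, 395 in all (2.17%). The median log2 ratio over all genes kept was −0.02 with an interquartile range of −0.17 to 0.12, and 91.1% of genes lay within 0.5 of zero on the log2 scale. Of the 40 genes with the most extreme ratios, 38 were listed at 0 in one of the lines. Of all called genes, 63 of the 154 higher ones were listed at 0 in IT and 37 of the 241 lower ones were listed at 0 in it:cbf123. A set of longer coding genes, protein-coding with a longest transcript of at least 500 bases and above 0 in both lines, was therefore set apart after these values had been seen. Of its 17256 genes, 50 were higher (0.29%) and 163 were lower (0.945%), 213 in all (1.23%). The higher direction made up 23.47% of these calls and 39.0% of the calls over all genes kept.

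**Figure D1:**
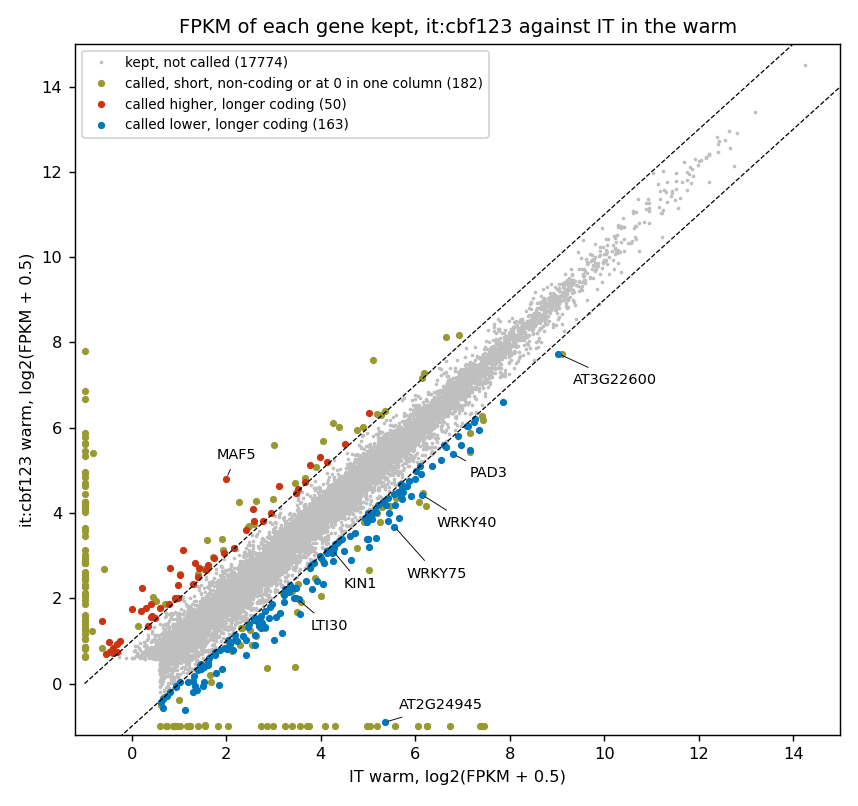
Each point is 1 of the 18169 genes kept, with log2(FPKM + 0.5) in it:cbf123 on the vertical axis and in IT on the horizontal axis, and the dashed lines mark 2-fold. The 50 longer coding genes called higher and the 163 called lower lie beyond the dashed lines, and of the other 182 called genes, which are short, non-coding or at 0 in one line, 63 lie on the left edge (0 in IT) and 37 on the lower edge (0 in it:cbf123).

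The other comparisons of the series place these counts. After 24 h of cold, it:cbf123 had 147 genes higher and 286 lower than IT (0.807% and 1.57% of 18220, 2.38% in all), and after 2 weeks 135 higher and 167 lower (0.733% and 0.906% of 18428). In the warm, sw:cbf123, the triple mutant of SW, had 381 genes higher and 410 lower than SW (2.08% and 2.24% of 18326). The lines labelled it33 and 35s were grown in the warm as well. Both were taken to be of the IT background, which their labels do not state. The study names CBF2-overexpressing plants among those sequenced, and the overexpressing plants whose making it describes were of the Ws-2 accession. The line labelled it33 is not described in the study's text and had 121 genes higher and 107 lower than IT (0.665% and 0.588% of 18200). The line labelled 35s, whose CBF2 transcript stood at 539.5 FPKM, had 326 higher and 677 lower (1.77% and 3.68% of 18383, 5.46% in all). The ratios of it:cbf123, it33 and 35s over IT share the same pooled IT value, so their results are set side by side below and no agreement between them is counted as evidence. Set against it33 in place of IT, it:cbf123 had 114 genes higher and 114 lower (0.627% each of 18169).

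Of the cold-regulated effector genes, LTI30 and KIN1 were lower in the mutant before any cold. Of the 18 genes of this list, all kept, 2 fell (1.33% of all kept genes fell) and none rose, and the median log2 ratio was −0.39 with 15 of 18 below zero, where the median of all genes was −0.02. LTI30, a dehydrin, was at 3.52 FPKM in it:cbf123, 16.8 in it33, 1013 in 35s and 10.7 in IT, a log2 ratio of it:cbf123 over IT of −1.48. KIN1, a small hydrophilic cold-induced protein, was at 8.29 FPKM in it:cbf123, 23.0 in it33, 2477 in 35s and 18.4 in IT (log2 ratio −1.11). For both genes it:cbf123 was the lowest of the 4 lines, 35s was far above the rest and it33 stood above IT.

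The remaining effector genes moved by less than 2-fold. RD29A, whose promoter is the classic carrier of the CRT/DRE element, was at 6.24 FPKM in it:cbf123, 12.1 in it33, 399 in 35s and 12.5 in IT (log2 ratio −0.95). COR15A, a chloroplast protein that protects membranes on freezing, was at 37.3 FPKM in it:cbf123, 64.7 in it33, 5583 in 35s and 56.5 in IT (−0.59). KIN2 had a log2 ratio of −0.62 and COR47 one of −0.36. The highest ratio of the list was that of COR413-PM1, at 362 FPKM in it:cbf123 and 280 FPKM in IT (0.37). The whole list in it33 had no member called in either direction and a median of 0.17, and in 35s it had 15 of 18 members higher and a median of 3.20. Of all kept genes 1.25% were called in it33 over IT, and 1.77% were higher in 35s over IT.

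The difference at LTI30 and KIN1 was larger after 24 h of cold, and at 2 weeks it stayed large for KIN1 but not for LTI30. After 24 h LTI30 was at 166 FPKM in it:cbf123 and 3266 FPKM in IT (log2 ratio −4.30), and KIN1 at 111 and 2264 FPKM (−4.35). At 24 h 14 of the 18 effector genes were lower in it:cbf123, with a median of −2.07, and at 2 weeks 7 were lower and 1 higher, with a median of −0.73. Of all kept genes 1.57% were lower at 24 h, and 0.906% were lower and 0.733% higher at 2 weeks. KIN1 at 2 weeks was at 26.3 FPKM in it:cbf123 and 557 FPKM in IT (−4.38), while LTI30 was at 65.3 FPKM in it:cbf123 and 119 FPKM in IT (−0.86).

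The Ws-2 CBF regulon, the genes that an earlier study of the Ws-2 accession found induced both by cold and by overexpression of a CBF gene, had few calls in the warm. Of its 132 kept members 2 were lower (LTI30 and KIN1) and none was higher, near the 1.33% lower and 0.848% higher of all kept genes. Its median log2 ratio was −0.03, beside −0.02 for all kept genes. The same list had 55 of 135 members lower after 24 h, with a median of −0.82, where 1.57% of all kept genes were lower. After 2 weeks 10 of 134 were lower, with a median of −0.12, where 0.906% of all kept genes were lower. In 35s over IT 60 members were higher and 1 lower, with a median of 0.88, where 1.77% of all kept genes were higher and 3.68% lower. In it33 over IT none of 132 was called.

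Promoter letters were read for the called genes. The CRT/DRE core, ACCGAC or GCCGAC on either strand (GTCGGT or GTCGGC on the other), was searched in the TAIR10.1 sequence, which is that of Col-0 and not of IT. LTI30 held 3 matches in the 1000 bases before its annotated start, KIN1 held 0 and MAF5, described below, held 0. The stretch just before LTI30 is shown because it holds all 3 matches, in capitals, 101, 79 and 9 bases before the start (chr3:18940523-18940642, plus strand, TAIR10.1).
LTI30 promoter: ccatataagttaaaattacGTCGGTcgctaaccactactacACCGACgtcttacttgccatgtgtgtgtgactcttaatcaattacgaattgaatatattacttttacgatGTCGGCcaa
Within 1000 bases a match was found for 32 of the 138 higher genes found in the reference (23.2%), 54 of the 230 lower genes (23.48%) and 4237 of all 18021 kept genes found there (23.51%). Among the kept Ws-2 regulon members 82 of 132 had one (62.1%). The genes called in the warm thus held the element about as often as any gene did.

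The plot of the gene lists shows their members side by side. The lists with the lowest medians were heat shock genes (−0.62), touch and fast stress genes (−0.44) and salicylic acid and systemic defence genes (−0.43). No member of these lists was higher, and with 5, 2 and 5 lower members in that order they held a small part of the 241 lower genes.

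**Figure D2:**
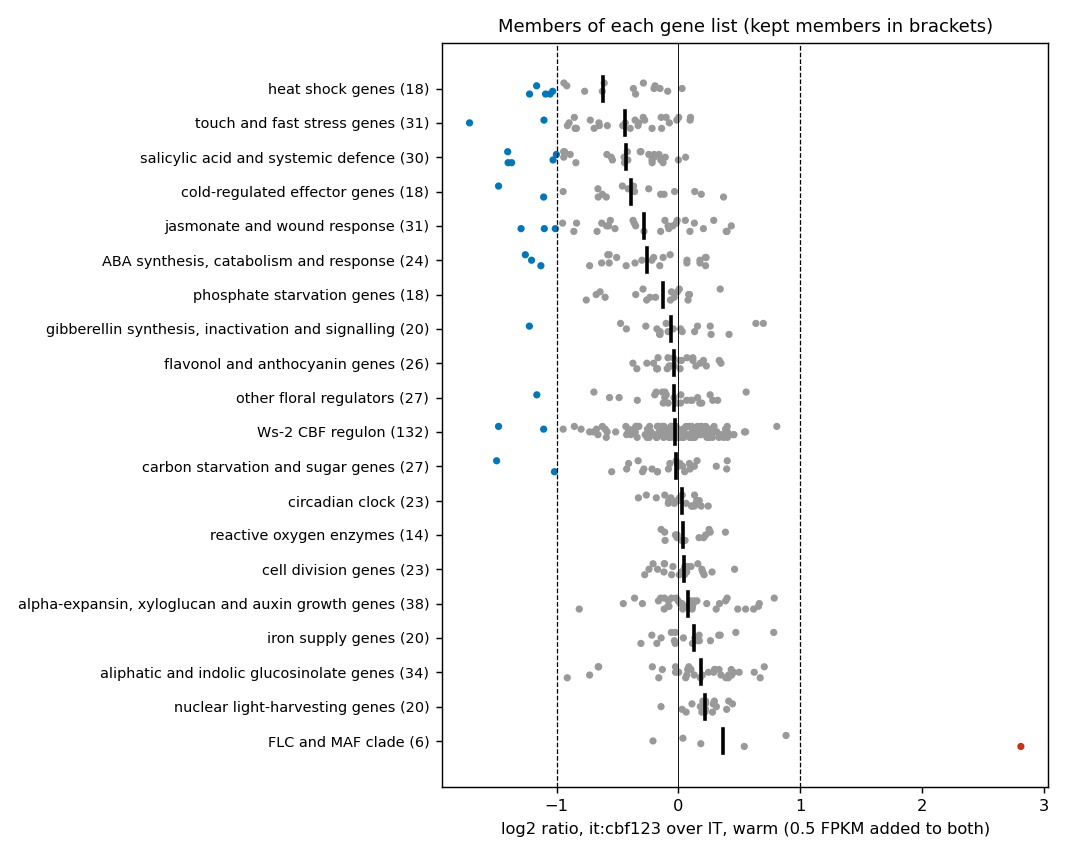
Each point is a kept member of a gene list, placed by its log2 ratio of it:cbf123 over IT in the warm, with the number of kept members in brackets, black bars at the list medians and dashed lines at 2-fold. Medians run between −0.62 for heat shock genes and 0.36 for the FLC and MAF clade, where MAF5 alone is called higher.

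All 30 genes of the salicylic acid and systemic defence list were kept, 5 fell and 29 had a log2 ratio below zero. Of all kept genes 1.33% fell, and their median log2 ratio was −0.02. PAD3, the P450 that completes camalexin synthesis, was at 41.5 FPKM in it:cbf123, 62.9 in it33, 18.3 in 35s and 110.3 in IT (log2 ratio −1.40). CYP71A13, which acts earlier in the same pathway, was at 48.2 FPKM in it:cbf123, 73.1 in it33, 58.1 in 35s and 125 in IT (−1.37). Both camalexin enzymes stood highest in IT, and CYP71A13 was lowest in it:cbf123 while PAD3 was lowest in 35s.

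FMO1, the enzyme that makes N-hydroxypipecolic acid for systemic resistance, was at 17.62 FPKM in it:cbf123, 28.1 in it33, 16.6 in 35s and 47.2 in IT (−1.40). ALD1, which acts upstream of FMO1, was at 15.4 FPKM in it:cbf123, 17.56 in it33, 25.1 in 35s and 31.3 in IT (−1.001). EDS5, which exports the salicylic acid precursor out of the chloroplast, was at 25.1 FPKM in it:cbf123, 31.5 in it33, 18.3 in 35s and 51.7 in IT (−1.03). ALD1 and EDS5 lay close to the 2-fold threshold, and both dropped under it once a trend of the ratio with transcript base composition, described below, was taken out.

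Other members of this list missed 2-fold. ICS1, the isochorismate synthase of salicylic acid synthesis, was at 80.2 FPKM in it:cbf123 and 144 FPKM in IT (−0.84), and PBS3, which conjugates its product, at 51.5 FPKM in it:cbf123 and 99.2 FPKM in IT (−0.94). NIMIN1 and NIMIN2, whose proteins bind the receptor NPR1, had log2 ratios of −0.89 and −0.93. The receptor gene NPR1 and the lipase-like regulators EDS1 and PAD4 had log2 ratios of −0.11, −0.31 and −0.13. PR1, the usual marker transcript of this pathway, was at 3496 FPKM in it:cbf123 and 4752 FPKM in IT (−0.44). ACD6 and AGD2 did not share the direction, with 474 FPKM in both lines for ACD6 and a ratio of 0.06 for AGD2. In the cold the list did not stay low, with 1 of 30 members higher and none lower at 24 h, a median of 0.33, and a median of 0.22 at 2 weeks. Of all kept genes 0.807% were higher and 1.57% lower at 24 h.

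Among transcription factors of fast stress responses, WRKY40 and WRKY75 fell most. WRKY40, a repressor-type WRKY factor induced by wounding and pathogens, was at 21.0 FPKM in it:cbf123, 45.5 in it33, 10.8 in 35s and 70.1 in IT (log2 ratio −1.71). WRKY75, linked to senescence and phosphate starvation, was at 12.3 FPKM in it:cbf123, 34.0 in it33, 6.29 in 35s and 46.6 in IT (−1.88). ZAT12, a zinc-finger factor of oxidative stress, was at 14.6 FPKM in it:cbf123, 25.4 in it33, 22.5 in 35s and 32.0 in IT (−1.10). For the WRKY genes 35s was the lowest line, and for ZAT12 it:cbf123 was. WRKY40 and ZAT12 were the 2 called genes of the touch and fast stress list, of which 31 were kept and 28 lay below zero. The share lower over all kept genes was 1.33%. The touch genes TCH2, TCH3 and TCH4, for which such lists are named, had log2 ratios of −0.22, −0.45 and −0.33, and the same list had no call at 24 h and a median of 0.29. Of all kept genes 2.38% were called at 24 h.

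Of 31 kept genes of jasmonate and wound response, 3 fell (1.33% of all kept genes fell) and none rose (median −0.28). JAZ1, a repressor that is itself induced by jasmonate, was at 46.2 FPKM in it:cbf123, 77.4 in it33, 40.2 in 35s and 99.6 in IT (−1.10). AOC3, 1 of the 4 allene oxide cyclases of jasmonate synthesis, was at 33.8 FPKM in it:cbf123, 55.9 in it33, 26.7 in 35s and 68.6 in IT (−1.01). Its paralogs AOC1, AOC2 and AOC4 had log2 ratios of 0.29, 0.39 and 0.43, so the genes of 1 enzymatic step did not move together. ERF1, an activator where the ethylene and jasmonate pathways meet, was at 2.23 FPKM in it:cbf123, 4.37 in it33, 1.15 in 35s and 6.19 in IT (−1.29). LOX2 and VSP2 had log2 ratios of 0.09 and 0.40.

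The abscisic acid list had 3 of 24 kept genes lower, against 1.33% of all kept genes, and none higher (median −0.26). NCED3, the rate-limiting dioxygenase of abscisic acid synthesis under drought, was at 2.96 FPKM in it:cbf123, 3.83 in it33, 3.01 in 35s and 7.07 in IT (−1.13). HAI1, a PP2C phosphatase that abscisic acid induces, was at 21.9 FPKM in it:cbf123, 28.3 in it33, 18.5 in 35s and 52.9 in IT (−1.26). RD26, a drought-induced NAC factor, was at 27.3 FPKM in it:cbf123, 44.8 in it33, 30.6 in 35s and 63.5 in IT (−1.205). In all 3 genes the mutant was close to 35s, and IT stood above the other lines. The factors ABF2, ABF3 and ABF4, which carry the abscisic acid signal to promoters, had log2 ratios of 0.07, 0.07 and −0.13.

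The heat shock list had calls in opposite directions in the warm and after 24 h of cold. Of 18 kept members 5 fell in the warm (against 1.33% of all kept genes), 17 lay below zero and the median was −0.62. In it33 over IT 2 of 18 were lower (against 0.588% of all kept genes) and the median was −0.27. In 35s over IT 6 of 18 were lower (against 3.68% of all kept genes) and the median was −0.41. None of the 18 was called in it:cbf123 over it33, with a median of −0.21. At 24 h 6 of 18 were higher in it:cbf123 than in IT (against 0.807% of all kept genes), none was lower and the median was 0.80. HSP90.1, the inducible cytosolic HSP90, was at 14.1 FPKM in it:cbf123 and 33.5 FPKM in IT in the warm (−1.22) and at 28.4 FPKM in it:cbf123 and 7.62 FPKM in IT at 24 h (1.83). HSFA2, the heat-induced heat shock factor, was at 2.31 FPKM in it:cbf123 and 5.48 FPKM in IT in the warm (−1.09), and at 19.6 FPKM in it:cbf123 and 7.95 FPKM in IT at 24 h (1.25). HSP70 had ratios of −1.03 in the warm and 1.21 at 24 h, and AT1G07400, a small heat shock protein, −1.16 and 1.43. HSP17.6A, at 1.70 FPKM in it:cbf123 and 4.06 FPKM in IT in the warm (−1.05), had a ratio of 0.80 at 24 h. Each of these 5 genes was thus below IT in the warm and above it at 24 h.

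Glutathione S-transferases of the tau class, which detoxify by conjugation, had several members among the lower genes. Of the 20 kept, a family chosen after its values were seen, 5 fell and none rose, where 1.33% of all kept genes fell. GSTU12 was at 1.53 FPKM in it:cbf123, 2.27 in it33, 0.622 in 35s and 7.61 in IT (log2 ratio −1.996), and GSTU3 at 8.75 FPKM in it:cbf123, 19.1 in it33, 3.52 in 35s and 32.1 in IT (−1.82). AOX1D, an alternative oxidase of mitochondria, was at 9.97 FPKM in it:cbf123, 18.4 in it33, 4.66 in 35s and 31.7 in IT (−1.62). These genes kept the order 35s, it:cbf123, it33, IT by rising level. PROPEP2, the precursor of a peptide that alerts neighbouring cells to damage, was at 1.79 FPKM in it:cbf123, 5.90 in it33, 0.958 in 35s and 8.51 in IT (−1.98), and its relative PROPEP3 at 3.43 FPKM in it:cbf123, 5.99 in it33, 1.34 in 35s and 11.1 in IT (−1.57). BAP2, an inhibitor of cell death, was at 14.4 FPKM in it:cbf123, 27.6 in it33, 12.9 in 35s and 49.6 in IT (−1.75).

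Further families, also chosen after their values were seen, had calls in the lower direction alone. NAC factors had 6 of 41 kept genes lower (14.6%), with NAC019 at 9.98 FPKM in it:cbf123, 23.7 in it33, 4.23 in 35s and 30.8 in IT (−1.58). Cytochrome P450s had 9 of 118 lower (7.63%), WRKY factors 3 of 49 (6.12%), EF-hand calcium-binding proteins 3 of 50 (6.0%) and UDP-glycosyltransferases 4 of 88 (4.55%), where 1.33% of all kept genes were lower. Receptor-like and leucine-rich repeat kinases, the largest family looked at, had 1 of 172 lower (0.581%), near the share of all genes. ABCG40, a plasma membrane transporter that imports abscisic acid, was at 20.8 FPKM in it:cbf123, 25.7 in it33, 11.5 in 35s and 59.9 in IT (−1.51). The fall in FPKM itself was largest, among longer coding genes, for AT3G22600, a lipid-transfer-like protein, with 213 FPKM in it:cbf123, 353 in it33, 112 in 35s and 522 in IT (−1.29). AT3G13950, an ankyrin-type protein, was at 96.6 FPKM in it:cbf123 and 231 FPKM in IT (−1.26), and AT1G19020 at 60.7 FPKM in it:cbf123 and 163 FPKM in IT (−1.42). These abundant transcripts also had IT highest and 35s lowest, with AT1G19020 at 113 FPKM in it33 and 40.5 FPKM in 35s.

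Enzymes of sterol, wall and ethylene metabolism were among the other lower genes. CYP710A1, a sterol desaturase that makes stigmasterol, was at 1.09 FPKM in it:cbf123, 2.21 in it33, 0.845 in 35s and 4.80 in IT (−1.74). AT2G45220, a pectin methylesterase, was at 15.4 FPKM in it:cbf123, 28.0 in it33, 6.57 in 35s and 43.1 in IT (−1.45). ACS8, an ACC synthase of ethylene production, was at 0.397 FPKM in it:cbf123, 1.301 in it33, 0.320 in 35s and 2.11 in IT (−1.54). All 3 followed the same order of lines as the glutathione S-transferases.

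The carbon starvation list had 2 of 27 kept genes lower, DIN11, an oxygenase-like gene that darkness induces, at 0.378 FPKM in it:cbf123 and 1.97 FPKM in IT (−1.49), and GPT2, a plastid glucose 6-phosphate translocator, at 31.3 FPKM in it:cbf123 and 63.9 FPKM in IT (−1.02). Over all kept genes 1.33% were lower, and the list median was −0.02, that of all genes.

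Several lists had no member called in either direction, where 2.17% of all kept genes were called. At that share a list of this size can hold no call, so the absence of calls says little about these lists. These were the circadian clock (23 kept, median 0.03), flavonol and anthocyanin genes (26, −0.04), glucosinolate genes (34, 0.19), iron supply (20, 0.12), phosphate starvation (18, −0.13), nuclear light-harvesting genes (20, 0.22), expansin, xyloglucan and auxin growth genes (38, 0.08), cell division (23, 0.05) and reactive oxygen enzymes (14, 0.04). The largest clock ratio was that of ELF3, part of the evening complex, at 1.60 FPKM in it:cbf123 and 2.14 FPKM in IT (−0.33). In the light-harvesting list 19 of 20 genes lay above zero, with LHCB5 at 7253 FPKM in it:cbf123 and 5334 FPKM in IT (0.44), a shift below 2-fold in every gene. In the glucosinolate list 25 of 34 lay above zero and the methylthioalkylmalate synthase MAM1 was at 207 FPKM in it:cbf123 and 147 FPKM in IT (0.50), while MYB122 and MYB51, factors of the indolic branch, had ratios of −0.91 and −0.65.

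The levels of the longer coding genes lower in the mutant are drawn for 24 of them in the plot of the 4 lines it:cbf123, it33, 35s and IT. These genes were chosen because it:cbf123 lay 2-fold or more below IT in the same values, so that IT is high and it:cbf123 low among the lines follows from the choice, and the order below is a description. Their median level in the warm was 4.23 FPKM in it:cbf123, 8.76 in it33, 3.14 in 35s and 11.3 in IT. IT was the highest of the 4 lines for 157 of the 163 genes, 35s was the lowest for 121 and it:cbf123 for 40, and it33 lay between it:cbf123 and IT for 156. The median log2 ratio of these genes was −0.52 for it33 over IT, with 10 lower and 0 higher, −1.65 for 35s over IT, with 132 lower and 2 higher, and −0.67 for it:cbf123 over it33, with 24 lower and 1 higher. Since the ratios over IT share 1 pooled IT value, a low level in the mutant lines and a high level in the IT libraries cannot be told apart by them. The ratio of it:cbf123 over it33 does not use IT, but its 163 genes were chosen with the it:cbf123 value.

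**Figure D3:**
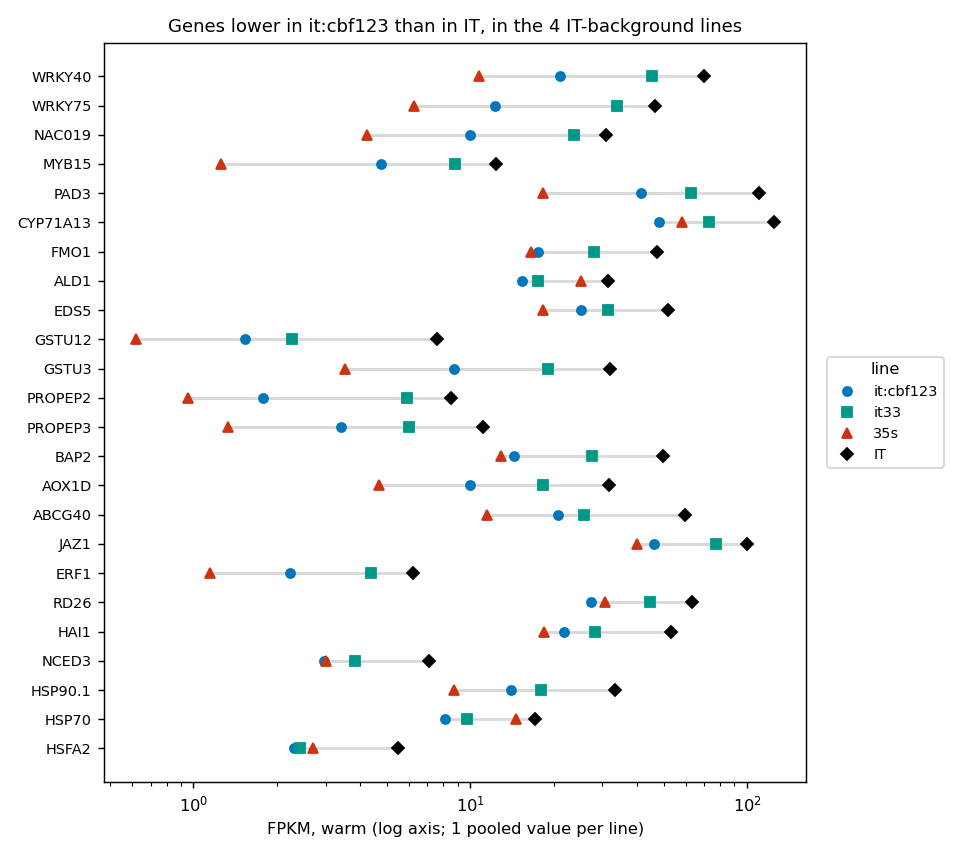
FPKM in the warm (log axis) of 24 genes lower in it:cbf123 than in IT, with 1 pooled value for each of it:cbf123, it33, 35s and IT. IT is the rightmost marker in every row, and for WRKY40 the 4 values are 21.0, 45.5, 10.8 and 70.1 FPKM in that order of lines.

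The Swedish lines had much less of these transcripts. For the same 163 genes the median level in the warm was 0.495 FPKM in sw:cbf123 and 0.738 FPKM in SW, and SW lay below it:cbf123 for 149 of them. After 24 h of cold the medians were 17.42 FPKM in it:cbf123 and 14.4 FPKM in IT, and after 2 weeks 4.63 FPKM in it:cbf123 and 3.93 FPKM in IT. The level in it:cbf123 at 24 h was above its warm level for 143 genes, and that in IT for 90. These genes were chosen for a warm level lower in it:cbf123 than in IT, which by itself favours the larger count in it:cbf123. In the cold the group had no such difference between mutant and parent, with a median log2 ratio of 0.25 at 24 h (6 higher, 5 lower) and 0.15 at 2 weeks (2 higher, 2 lower).

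MAF5 was the largest rise among the longer coding genes. It was at 27.5 FPKM in it:cbf123, 31.5 in it33, 4.19 in 35s and 3.50 in IT in the warm, a log2 ratio of it:cbf123 over IT of 2.81. After 24 h of cold it was at 27.4 FPKM in it:cbf123, 29.0 in it33 and 2.57 in IT (3.19), and after 2 weeks at 33.6 FPKM in it:cbf123, 33.0 in it33 and 2.67 in IT (3.42). The level thus separated it:cbf123 and it33 from 35s and IT in the warm, and in it:cbf123, it33 and IT it barely moved with temperature. In the Swedish background MAF5 was at 1.08 FPKM in sw:cbf123 and 1.02 FPKM in SW in the warm, both below IT. The lines labelled sw-cbf2 and sw-cbf23 had 4.07 and 1.09 FPKM in the warm. In SW the MAF5 level was 3.51 FPKM at 24 h and 4.42 FPKM at 2 weeks.

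The other members of the clade differed less. MAF4, which lies directly upstream of MAF5, was at 11.4 FPKM in it:cbf123, 11.5 in it33, 4.86 in 35s and 5.98 in IT in the warm (0.88), and the log2 ratios of it:cbf123 over IT were 0.61 at 24 h and 1.74 at 2 weeks. FLC was at 149 FPKM in it:cbf123, 143 in it33, 96.4 in 35s and 102 in IT (0.54). As with MAF5, it:cbf123 and it33 lay together above 35s and IT at both genes. MAF2, MAF3 and FLM had log2 ratios of −0.21, 0.04 and 0.18 in the warm. The study itself reported MAF5, MAF4 and FLC as higher in it:cbf123 than in IT, with replicates, by RNA sequencing and by quantitative RT-PCR.

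**Figure D4:**
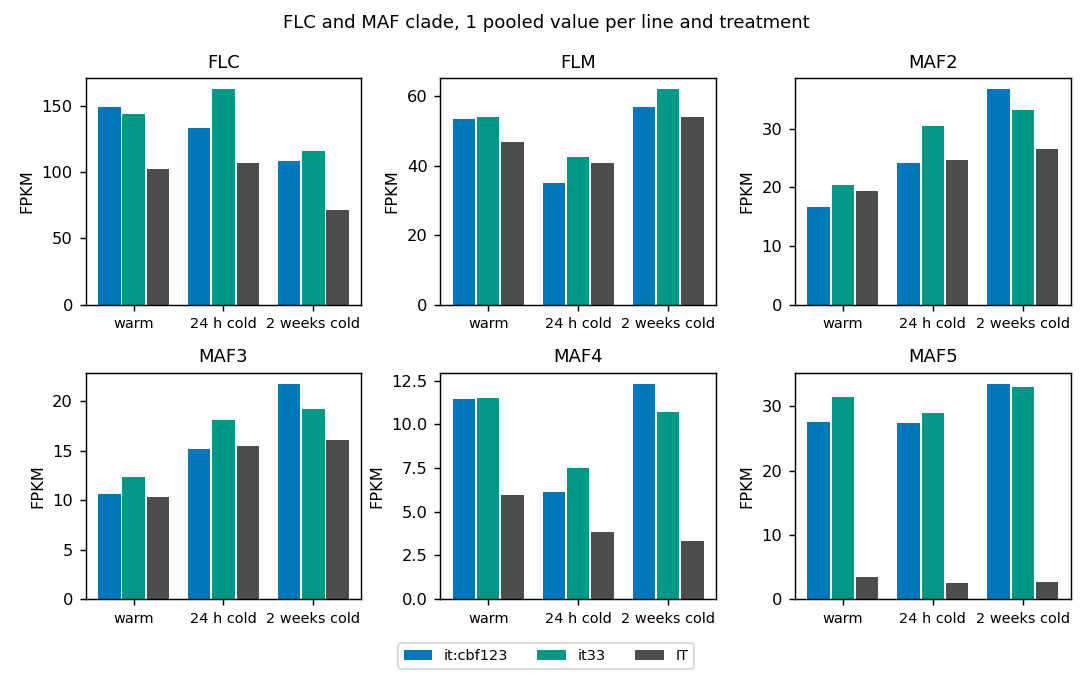
FPKM of FLC, FLM and MAF2 to MAF5 in it:cbf123, it33 and IT in the warm and after 24 h and 2 weeks at 4°C, with bars for the 1 pooled value per group and an axis from 0 in each panel. MAF5 stands at 27.4 to 33.6 FPKM in it:cbf123 and at 2.57 to 3.50 FPKM in IT, while MAF2 and MAF3 stay within 2-fold between the lines, with the largest gap at 2 weeks (MAF2 at 36.8 FPKM in it:cbf123 and 26.6 FPKM in IT).

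MAF2, MAF3, MAF4 and MAF5 follow each other on the plus strand of chromosome 5, from MAF2 at chr5:25982254-25986435 to MAF5 at chr5:25997504-26002619 in TAIR10.1. Their copies are alike in sequence, with identity of aligned coding bases between 76.8% for MAF2 and MAF5 and 93.6% for MAF2 and MAF3, and 84.6% for MAF4 and MAF5. Reads that fit more than 1 copy could be shared among them by the authors' counting, so the split between MAF4 and MAF5 is less certain than that between MAF5 and FLC (72.3%).

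Most other genes of flowering moved by less than 2-fold. The lower count of each list that follows stands beside 1.33% of all kept genes. Of 27 kept floral regulators outside the clade 1 was lower, AGL19, a MADS-box activator of flowering that prolonged cold induces, at 1.29 FPKM in it:cbf123, 2.69 in it33, 3.77 in 35s and 3.50 in IT (−1.16), and the list median was −0.04. Among the floral regulators 15 lay below zero and 12 above. SOC1 was at 9.87 FPKM in it:cbf123 and 16.3 FPKM in IT (−0.69). TEM1, AGL24 and SPL4 had log2 ratios of −0.57, −0.49 and 0.56. Of 20 kept gibberellin genes 1 was lower, GA2OX6, a gibberellin-inactivating oxidase, at 1.51 FPKM in it:cbf123, 3.13 in it33, 1.11 in 35s and 4.196 in IT (−1.22), and the list median was −0.06.

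Some of the higher genes encode proteins of the cell wall and cell surface, counted here over all kept genes in families again chosen after their values were seen. Proline-rich and hydroxyproline-rich proteins had 6 of 97 kept genes higher and 1 lower, and lipid-transfer-like proteins had 6 of 52 higher and 3 lower. Arabinogalactan proteins, heavily glycosylated proteins of the wall and plasma membrane, had 3 of 39 higher and 1 lower. Over all kept genes 0.848% were higher and 1.33% lower, against 6.19%, 11.5% and 7.69% higher in these families. AT5G11990, a proline-rich protein, was at 8.33 FPKM in it:cbf123, 1.77 in it33, 2.57 in 35s and 1.62 in IT (2.06), and AGP26 at 48.7 FPKM in it:cbf123 and 22.3 FPKM in IT (1.11). AT4G38080, a hydroxyproline-rich protein, was at 16.6 FPKM in it:cbf123, 5.13 in it33, 3.35 in 35s and 5.40 in IT (1.53). AT4G22485, a lipid-transfer-like protein, was at 6.09 FPKM in it:cbf123, 1.35 in it33, 7.05 in 35s and 1.25 in IT (1.92). In AT5G11990 and AT4G38080 the mutant stood alone above the other lines, and in AT4G22485 it shared the higher level with 35s. Across all 50 longer coding genes, which were chosen for a level in it:cbf123 at least 2-fold that in IT, it33 was the highest of the 4 lines for 5 and 35s for 12.

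The higher longer coding genes had few G relative to C in their transcripts. The balance (G − C)/(G + C) of the longest transcript had a median of −0.13 in the 50 higher genes, 0.03 in the 163 lower genes and 0.06 in all longer coding genes. Of the 146 longer coding genes with a balance below −0.2, 20 were higher (13.7%) and 1 was lower (0.685%), and their median log2 ratio was 0.44. The same 146 genes had medians of −0.22 at 24 h and −0.32 at 2 weeks for it:cbf123 over IT, and −0.96 for sw:cbf123 over SW in the warm. In the highest bin of the balance the medians were 0.021 for it:cbf123 over IT in the warm, 0.14 at 24 h, 0.065 at 2 weeks and 0.23 for sw:cbf123 over SW. The lowest bin thus lay above the highest in the warm IT comparison and below it in those 3. The other lines over IT in the warm had little trend, with medians of 0.045 in the lowest and 0.070 in the highest bin for it33 and of 0.11 and 0.080 for 35s. Once the trend was taken out, 24 of the 50 higher genes and 147 of the 163 lower genes were still called, and 172 longer coding genes in all were lower. MAF5, AT5G11990, LTI30, KIN1, WRKY40 and PAD3 were among those still called, and AGP19, AGP27, AT4G22505, AT1G15825, AT2G22510, AT3G22070 and AT1G62510, all of the families just described, among those that were not. What sets the trend was not tested.

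**Figure D5:**
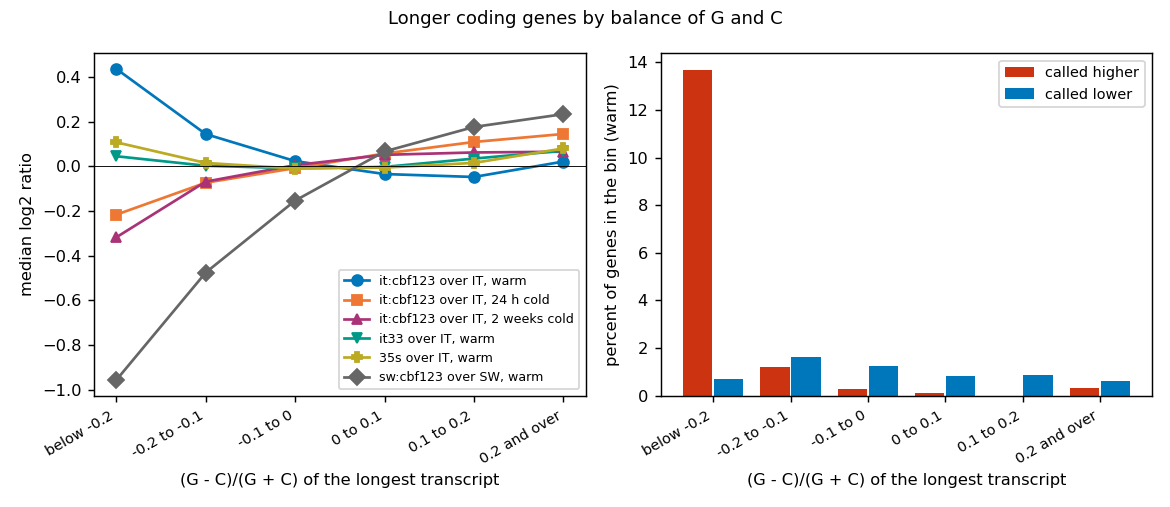
Left, median log2 ratio of longer coding genes in 6 bins of (G − C)/(G + C) of the longest transcript, for it:cbf123 over IT in the warm and at both cold times, for it33 and 35s over IT and for sw:cbf123 over SW in the warm; right, the percent of genes in each bin called higher or lower in the warm IT comparison. The lowest bin holds 146 genes, with 13.7% called higher and a median of 0.44 in the warm but −0.96 for sw:cbf123 over SW.

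Other higher genes were not of these families. IQD20, a calmodulin-binding protein, was at 5.37 FPKM in it:cbf123, 2.90 in it33, 3.38 in 35s and 1.52 in IT (1.54). MT1B, a metallothionein, was at 34.2 FPKM in it:cbf123, 34.4 in it33, 20.4 in 35s and 13.1 in IT (1.35), and CLE22, a precursor of a small signalling peptide, at 3.12 FPKM in it:cbf123, 1.44 in it33, 0.528 in 35s and 0.827 in IT (1.45). MT1B followed the pattern of MAF5 in that it:cbf123 and it33 were alike, whereas IQD20 and CLE22 were highest in it:cbf123. AT3G17640, a leucine-rich repeat protein, was at 24.4 FPKM in it:cbf123, 10.13 in it33, 13.9 in 35s and 8.12 in IT (1.53), and AT3G23450, with no described function, at 39.6 FPKM in it:cbf123, 23.8 in it33, 8.50 in 35s and 15.3 in IT (1.34). With the trend on G and C balance taken out, AT3G17640 (0.99) and AT3G23450 (0.85) were no longer called, while IQD20, MT1B and CLE22 still were. PDF1.5, a plant defensin, was at 2.75 FPKM in it:cbf123, 5.01 in it33, 8.50 in 35s and 0.645 in IT (1.503), so that IT was the low line.

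The short and non-coding genes gave many calls that changed between columns. Of 54 kept snoRNA genes 12 were higher and 9 lower, and of 42 kept miRNA genes 12 were higher and 8 lower. The 182 called genes outside the longer coding set had a median transcript of 205 bases. The tRNA gene AT3G50835 was at 117 FPKM in it:cbf123 and listed at 0 in it33, 35s and IT and in the cold columns of it:cbf123 and IT, and the chloroplast gene ATCG00110 at 222 FPKM in it:cbf123 and listed at 0 in IT. ATCG00110 was listed at 0 in it:cbf123 and at 75.9 FPKM in IT at 24 h. Such genes are short against a sequencing fragment, and their values carry little weight here. Of the genes encoded in the organelles, 72 of the chloroplast were kept, with 5 higher, 8 lower and a median of −0.13, and 14 of the mitochondrion, with 2 higher, 1 lower and a median of −0.01.

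A neighbouring pair on chromosome 2 exchanged places. MAPR2, a membrane-associated progesterone-binding-type protein, was at 41.7 FPKM in it:cbf123 and 0.0659 FPKM in IT, and AT2G24945, which lies 932 bases downstream on the same strand, was at 0.0336 FPKM in it:cbf123 and 40.4 FPKM in IT. In it33 both had values, 25.3 FPKM for MAPR2 and 23.7 FPKM for AT2G24945, as in 35s with 27.6 and 18.3 FPKM. In the Swedish lines the exchange ran the other way, with MAPR2 at 0.0217 FPKM in sw:cbf123 and 20.9 FPKM in SW, and AT2G24945 at 28.8 FPKM in sw:cbf123 and 0.738 FPKM in SW. The assignment of reads between these genes is uncertain, and neither is taken as a change.

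The called genes were spread over the genome. By chromosome 0.578% (chromosome 5) to 1.02% (chromosome 3) of kept genes were higher and 1.06% (chromosome 5) to 1.6% (chromosome 3) were lower. Within 1 Mb on either side of the edited CBF genes, 2 of 419 kept genes were higher (0.477%) and 6 lower (1.43%). RD26 and AGL19 were among those 6. Runs of 3 neighbouring genes called the same way occurred at 2 places. On chromosome 3 these were TDR1, ERF1 and MYB15, with TDR1 at 0.638 FPKM in it:cbf123 and 1.99 FPKM in IT (−1.13) and MYB15, a factor that regulates lignin genes in defence, at 4.77 FPKM in it:cbf123 and 12.4 FPKM in IT (−1.29). On chromosome 2 these were AT2G39518, AT2G39520 and AT2G39530, with log2 ratios of −1.74, −1.51 and −1.47.

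Most warm calls were not made in the cold. The shared part was above the share of all genes called there, and so was the part called the opposite way. That share of all genes was 0.807% higher and 1.57% lower at 24 h and 0.733% and 0.906% at 2 weeks. Of the 154 higher genes 14 were higher at 24 h too (9.09% of the warm genes, 9.52% of those at 24 h) and 21 at 2 weeks (13.6% and 15.6%). Of the 241 lower genes 17 were lower at 24 h (7.05% of the warm genes, 5.94% of those at 24 h) and 13 at 2 weeks (5.39% and 7.78%). The other way round, 29 of the 154 higher genes were lower at 24 h and 14 of the 241 lower genes were higher. At 2 weeks these numbers were 29 and 16. Called higher at each of the 3 times were MAF5 and the short genes AT1G14642 and AT2G43141, and called lower at all 3 were KIN1 and the short genes AT5G09711 and AT1G20015. Among longer coding genes MAF5 and KIN1 were therefore the ones that kept their call at every time.

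The Swedish triple mutant shared a minor part of the calls, and genes were called the opposite way about as often. Over all kept genes there 2.08% were higher and 2.24% lower. Of the 154 genes higher in it:cbf123 over IT, 32 were higher in sw:cbf123 over SW (20.8% of the IT list, 8.4% of the SW list). Of the 241 lower genes 12 were lower there (4.98% and 2.93%). In the opposite direction, 28 of the 154 higher genes were lower in sw:cbf123, and 18 of the 241 lower genes were higher. Among the longer coding genes the shared numbers were 5 of 50 and 10 of 163. The opposite call was made in sw:cbf123 for 15 of the 50 higher and 3 of the 163 lower genes. All 17256 longer coding genes held 216 higher and 304 lower ones there. The shared lower genes included PAD3, at 0.527 FPKM in sw:cbf123 and 2.56 FPKM in SW (−1.58), CYP71A13, at 0.620 and 5.11 FPKM in the same lines (−2.32), FMO1 (−1.41) and WRKY75 (−1.23). The salicylic acid and systemic defence list had 11 of 29 kept members lower in sw:cbf123, with a median of −0.73. The cold-regulated effector list did not share the direction, since 4 of 17 members were higher and none lower in sw:cbf123 over SW, with a median of 0.55. Whether the IT and SW effects differ was not tested.

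The rule's limits were sharp but arbitrary. The lowest genes kept were HMA5, at 0.739 FPKM in it:cbf123 and 1.0007 FPKM in IT, and AT3G09680, at 0.547 FPKM in it:cbf123 and 1.0018 FPKM in IT. The highest left out were AT1G11560 and AT5G05890, at 0.9998 and 0.9996 FPKM in it:cbf123. Just inside 2-fold were AT3G48346 (1.01) and AT3G22142 (1.03) among higher genes and MYB74 (−1.0003) and PMEI2 (−1.0008) among lower genes. Just outside were AT4G22517 and OFP6 (0.99 each) and AT5G28450 and AT5G19880 (−0.99 each).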

How the data were processed

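RNA from the aerial part of 23-day-old plants was sequenced from 2 libraries per group. The authors aligned the reads to TAIR10 with Bowtie2 and TopHat (TopHat2 2.1.0 in the submitters' processing notes) and estimated FPKM with Cuffdiff of Cufflinks, version 2.1.1 in those notes. The deposited FPKM table holds 22 columns, 1 pooled value per group, for 33557 genes. Library depth is unknown, no test across replicates was possible, and no p-value is given.

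The log2 ratio of it:cbf123 over IT in the warm was computed with 0.5 FPKM added to both, for genes at 1 FPKM or more in either column, and understates the change of low genes. Python 3.11.15, pandas 2.3.3, NumPy 2.4.6, SciPy 1.17.1, statsmodels 0.14.6, Biopython 1.88 and matplotlib 3.10.9 were used. Gene IDs were matched to TAIR10.1 of RefSeq, where 32813 were found and 744 were not. Edited CBF sequences came from the study's supplement.

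A design written for replicate columns was replaced by ratios. The genes, lists and lines were chosen with earlier results of these data known. Named genes were the 20 largest and 20 smallest ratios, the 10 largest rises and falls in FPKM among called genes, all CBF, FLC and MAF genes, the called members of each list (or the 2 largest ratios where none was called), genes called in all 3 treatments or in both ecotypes, runs of 3 called neighbours, and genes next to each threshold. Of the first group only examples are described. Added after the values were seen were the 30 largest and 40 smallest ratios of longer coding genes, product families, single list members below 2-fold, and the longer coding set. Alternatives were 0.1 or 1 FPKM added, no filter or one at 5 FPKM, median-of-ratios scaling, quantile normalization, lowess trends on level or on G and C balance taken out, nuclear genes only, and shorter promoters.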

Additional observations from a re-analysis of the deposited data

Results flagged for a closer look

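The genes below were called one way in it:cbf123 over IT in the warm and the other way in a second comparison. Each rests on 1 pooled value per group, and none of these differences was tested. Values are log2 ratios.

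After 24 h of cold, it:cbf123 was above IT for genes that were lower in the warm, namely HSP90.1 (1.83, against −1.22 in the warm), HSFA2 (1.25, −1.09), HSP70 (1.21, −1.03), the small heat shock gene AT1G07400 (1.43, −1.16), ALD1 (1.22, −1.001) and DIN11 (1.74, −1.49). At 24 h it:cbf123 was below IT for AT3G22142 (−1.84, 1.03 in the warm), AT4G22485 (−1.58, 1.92), AT4G22505 (−1.69, 1.498) and PDF1.5 (−2.64, 1.503). At 2 weeks it was below IT for AT3G22142 (−2.23), AT5G11990 (−1.44, 2.06 in the warm), AGP27 (−1.72, 1.16) and AT2G01310 (−2.10, 1.29), the last listed at 0 in it:cbf123 at that time. AT2G24945, whose reads may be shared with a neighbour, had ratios of 1.38 at 2 weeks and 4.57 in the Swedish lines, against −6.26 in the warm.

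For sw:cbf123 over SW in the warm, the ratio was below −1 for genes that were higher in it:cbf123 over IT. They were AT3G22142 (−2.37), AT5G11990 (−1.10), AT1G15900 (−1.34, 2.01 in IT), AT4G22485 (−1.41), AT4G38080 (−1.40), AT3G17640 (−1.36), AT4G22505 (−1.35), AT2G25510 (−1.36), AT2G22510 (−1.28), AT1G62510 (−1.31), AGP19 (−1.30) and AT3G22070 (−1.49). Transcripts with few G relative to C had a median of 0.44 in the warm IT comparison and −0.96 in the Swedish one, and the part of this trend in these reversals was not tested.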

How the results depend on the processing

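No paired analysis was possible because the deposited table holds 1 pooled value per group, and for the same reason no replicate could be left out. The higher count of 154 was 97 with a filter at 5 FPKM and 50 over longer coding genes, where the lower count was 163 in place of 241. Over the other alternatives the higher count lay between 118 and 176 and the lower count between 188 and 319. Calls shared between the warm and 24 h were 14 higher and 17 lower, and became 9 and 11 at 5 FPKM and 4 and 5 over longer coding genes. Those shared with 2 weeks were 21 higher and 13 lower, and became 10 higher at 5 FPKM and 3 and 2 over longer coding genes. Those of all 3 treatments were 3 each way, and 1 each way over longer coding genes. Calls shared with the Swedish lines were 32 higher and 12 lower. The higher number was 19 at 5 FPKM and 5 over longer coding genes, and the lower number was 21 with 0.1 FPKM added, 5 with 1 FPKM added and 2 at 5 FPKM. Within 500 bases the share of promoters with the element was 14.5% for higher, 11.3% for lower and 13.8% for all kept genes, and within 250 bases before to 50 after the start 7.97%, 8.26% and 9.87%. Of 195 named genes kept, none reversed. With 1 FPKM added 18 lost their call, with the G and C trend taken out 19, with quantile normalization 8. The cause of these moves was not tested, apart from filters that leave fewer genes. List medians changed sign for 4 of 22 lists without a filter and 4 with quantile normalization.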
